A study of Mus musculus with 6 samples.

Results

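The genes described here encode the core spliceosome and the RNA-binding proteins that steer it, taken by symbol as 6 families: the SR proteins (Srsf), the hnRNP proteins (Hnrnp), the U2AF subunits (U2af), the SF3A and SF3B subunits of the U2 particle (Sf3a, Sf3b), the Sm and other small nuclear ribonucleoprotein (snRNP) proteins (Snrp), and the pre-mRNA processing factors (Prpf). Symbols ending in -ps were left out, as were predicted genes named Gm. The rule found 68 of the 35275 gene IDs in the table: 11 SR, 20 hnRNP, 3 U2AF, 9 SF3A and SF3B, 12 Snrp and 13 PRPF genes. The rule by symbol used no measured value, but it was chosen with earlier results of these data known. RNA was sequenced from Melb-a cells, an immortalised line of mouse melanoblasts (melanocyte precursors) of C57BL/6J genotype, labelled as melanocytes from skin. The 3 treated libraries came from cells given 10 µM iBRD9, a small molecule that blocks the bromodomain of BRD9 (a subunit of one of the SWI/SNF chromatin remodelers). The 3 control libraries came from cells given the vehicle DMSO. Cells of both groups spent the same 48 h in DMEM with 10% fetal bovine serum, 2 nM NDP-α-MSH (a stable analog of melanocyte stimulating hormone) and 200 nM phorbol myristate acetate, so every library is from a differentiating culture of 1 line. The question put to these genes is how their transcript levels differ between cells with the inhibitor and cells with the vehicle.

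Splicing removes introns from newly made transcripts. The U1 and U2 snRNPs mark the 5′ splice site and the branch point, U2AF reads the 3′ splice site, and the tri-snRNP of U4, U6 and U5 then joins to build the catalytic centre. SR proteins bind exonic enhancers and mostly favour inclusion of the exon, whereas many hnRNP proteins bind silencers and favour skipping. Many SR and hnRNP genes carry poison exons, whose inclusion sends the transcript to nonsense-mediated decay, and many of these proteins regulate their own transcripts that way. A gene-level count does not separate productive from poison-exon transcripts.

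The libraries held 29680952, 24134176 and 22846391 counts with iBRD9 and 23248475, 26675006 and 24986925 counts with DMSO. Levels are given as CPM, the counts of a gene per 1000000 counts of its library, with library sizes adjusted by edgeR's TMM method. Of 13602 genes tested, 4057 were higher and 4205 lower with iBRD9 at an adjusted p under 0.05, and the median log2 fold change of all of them was 0.0071. DMSO replicate 1 was unlike the other controls: its log2 CPM over genes correlated at 0.989 and 0.987 with DMSO replicates 2 and 3, against 0.995 between those 2. Its correlation with the iBRD9 libraries was 0.967 to 0.970, and that of DMSO replicates 2 and 3 was 0.952 to 0.958. The 7 melanocyte markers summed to between 14732 and 16227 CPM with iBRD9 and between 15315 and 17573 CPM with DMSO. All 7 were tested, and 1 was called higher and 4 lower with iBRD9. The 5 leukocyte markers summed to between 3.84 and 4.61 CPM with iBRD9 and between 5.69 and 7.49 CPM with DMSO, with Ptprc, Cd3e and Tyrobp at 0, and the 6 keratinocyte markers to between 8.32 and 9.71 CPM with iBRD9 and between 8.05 and 9.07 CPM with DMSO, with Krt5 at 0. The 6 fibroblast markers summed to between 131 and 145 CPM with iBRD9 and between 75.3 and 99.7 CPM with DMSO, and the 4 endothelial markers to between 3.96 and 5.83 CPM with iBRD9 and between 1.17 and 1.48 CPM with DMSO; their part in the results was not tested, and in bulk RNA more such cells and more RNA per cell cannot be told apart. Of the 5 fibroblast markers tested, 2 were called higher and 1 lower. Nothing in the labels says whether the replicates came from separate cultures, so the p-values measure the spread between these libraries, which may be technical.

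With iBRD9 the SR genes were the family with the highest median change, about as many hnRNP genes rose as did not pass, and the U2 subunits of SF3A and SF3B moved in both directions. The 68 genes took 1.44%, 1.49% and 1.49% of all counts with iBRD9, and 1.30%, 1.06% and 1.04% with DMSO. Of the 65 genes that passed the filter on low counts, 30 rose and 12 fell with iBRD9, or 46.2% and 18.5%, where 29.8% of all tested genes rose and 30.9% fell. Their median log2 fold change was 0.20. The groups did not overlap for 46 of the 65, or 70.8%, near the 68.0% of all tested genes. Scaled by library size alone, 40 rose and 8 fell; that scaling moved the median log2 fold change of all genes by 0.11. Of the 65, 14 were higher by more than 1.5-fold, 6 of them by more than 2-fold, and 1 (Sf3a2) was lower by more than 1.5-fold. Of the 13602 tested genes, 2660 were higher by more than 1.5-fold and 1350 of them by more than 2-fold, shares near those of the 65. Lower by more than 1.5-fold were 1960 of the 13602. Exons of 26 of the 68 genes overlap those of another annotated gene, and for 15 of them that gene had at least 1 CPM; whether strand was used in counting is not stated. The 3 genes under the filter were Srsf12, with 1 count in iBRD9 replicate 1 alone, Snrpf, with 24, 14 and 3 counts with iBRD9 against 5, 3 and 4 counts with DMSO, and Snrpert, a processed pseudogene with 1 count in DMSO replicate 1 alone.

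**Figure D1:**
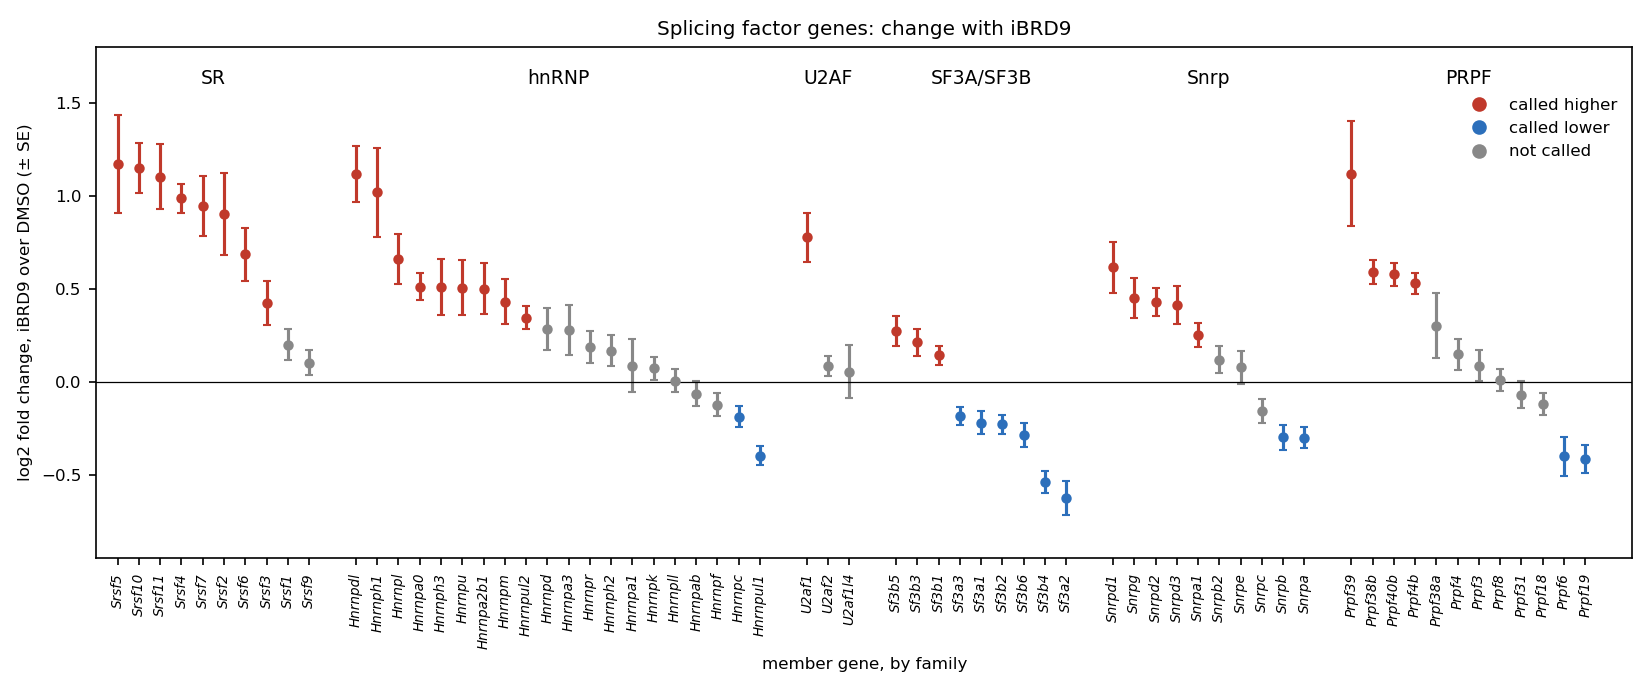
Log2 fold change (iBRD9 over DMSO, edgeR) of the tested genes (1 is not drawn), ordered within each family, with bars for the standard error and the called genes marked. The SR genes lie between 0.10 and 1.17, and the SF3A and SF3B genes lie on both sides of 0, from -0.63 to 0.27.

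DMSO replicate 1 was the DMSO library with the highest CPM for 46 of the 65 genes (70.8%), which was the case for 43.0% of all tested genes. Over the 15 genes that differed by more than 1.5-fold, its log2 CPM lay between 0.15 (Prpf38b) and 0.72 (Prpf39) of the way to the iBRD9 mean from the mean of the other DMSO libraries, with a median of 0.54. Without this library 41 of the genes rose and 15 fell, all 42 calls were kept and 13 more of the 65 were made. Snrpf, with 3 and 4 counts in DMSO replicates 2 and 3, then passed the filter and was called higher. How many of all tested genes were called without this library is not given here, so the added calls are not read as particular to these genes. Whether this library differs in its treatment, culture or handling cannot be told from the labels, and its part in the results was not tested.

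**Figure D2:**
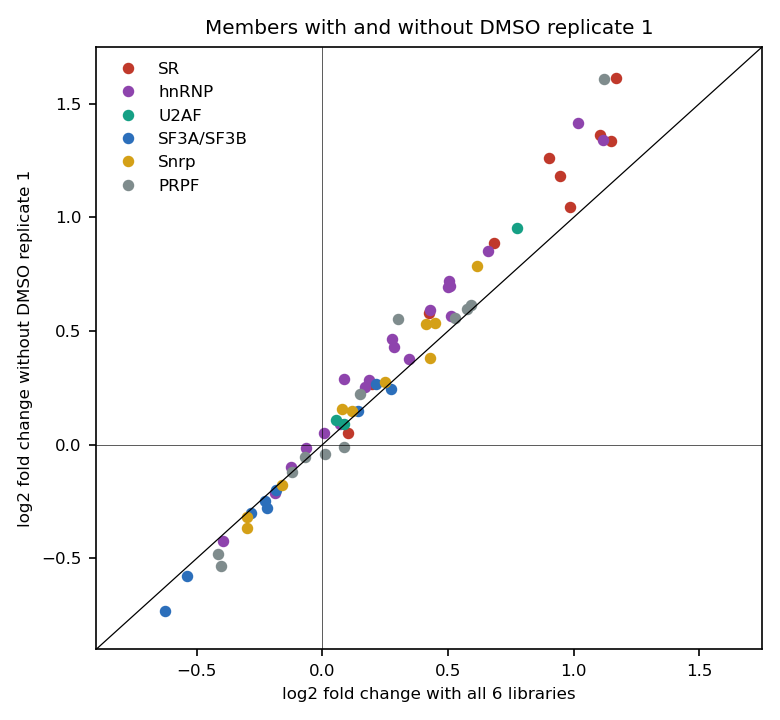
Log2 fold change of the tested genes (1 is not drawn) with all 6 libraries (x axis) against that without DMSO replicate 1 (y axis), with the line of equality, coloured by family. The SR and hnRNP genes that rose lie above the line; Srsf5 is at 1.17 with all libraries and 1.62 without this one.

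The proximal promoters of 5 of the changed genes are shown, to set genes that rose beside genes that fell: Srsf5, Srsf7 and Hnrnpa0 rose, and Prpf6 and Hnrnpul1 fell. Each is the 120 bases directly before the RefSeq transcription start (build GRCm38.p6), 5′ to 3′ on the gene's strand, in a window with at most 30 annotated exonic bases. Srsf5 is at chr12:80945379-80945498 (+), Srsf7 at chr17:80207306-80207425 (-), Hnrnpa0 at chr13:58128557-58128676 (-), Prpf6 at chr2:181601199-181601318 (+) and Hnrnpul1 at chr7:25754760-25754879 (-). Capitals mark matches, on either strand, to the SP1-type GC box GGGCGG, the CCAAT box CCAAT, the ETS core CCGGAAG and the YY1 core AAGATGG.
Srsf5: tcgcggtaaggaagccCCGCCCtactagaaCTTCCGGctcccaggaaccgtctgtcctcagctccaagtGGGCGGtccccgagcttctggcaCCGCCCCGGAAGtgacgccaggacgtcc
Srsf7: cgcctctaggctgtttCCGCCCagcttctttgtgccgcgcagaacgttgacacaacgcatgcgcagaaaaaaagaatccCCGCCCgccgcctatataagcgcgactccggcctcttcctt
Hnrnpa0: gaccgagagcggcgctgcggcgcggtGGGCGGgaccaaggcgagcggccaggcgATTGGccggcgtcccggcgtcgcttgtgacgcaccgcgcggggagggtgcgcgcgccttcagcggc
Prpf6: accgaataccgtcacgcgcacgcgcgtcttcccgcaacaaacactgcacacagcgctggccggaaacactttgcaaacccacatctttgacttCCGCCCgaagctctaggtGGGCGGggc
Hnrnpul1: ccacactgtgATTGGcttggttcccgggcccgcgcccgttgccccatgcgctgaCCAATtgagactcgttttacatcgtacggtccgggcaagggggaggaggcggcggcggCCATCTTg
Srsf5 had GC boxes starting at -104, -51 and -28 and ETS cores at -90 and -23; the last GC box and the last ETS core share bases. Srsf7 had GC boxes at -104 and -41, Hnrnpa0 a GC box at -94 and a CCAAT box at -66, and Prpf6 GC boxes at -27 and -9. Hnrnpul1 had CCAAT boxes at -110 and -66 and a YY1 core at -8. GGGCGG and CCAAT each occurred in a gene that rose and in one that fell, and a match is a description of sequence only.

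The motifs were counted on both strands of the 250 bases before each start, in 76 promoters of the 58 genes found in the RefSeq table. GGGCGG was in 92.9% of the 14 SR promoters and 65.8% of all 76, where 32.7% of all 32851 promoters in the table held it. It was in 78.4% of the 37 promoters of genes that rose, 46.2% of the 13 of genes that fell and 58.3% of the 24 of genes not called. CCGGAAG was in 87.5% of the 8 SF3A and SF3B promoters and 28.9% of all 76, where 6.91% of all promoters held it. By call, CCGGAAG was in 24.3% of promoters of genes that rose, 53.8% of genes that fell and 25.0% of genes not called. Among genes that fell, the promoters with CCGGAAG were those of Sf3a1, Sf3a2, Sf3a3, Sf3b2, Sf3b6 and Prpf19. The share by call and the share by family therefore largely count the same SF3A and SF3B promoters. CCAAT was in 63.0% of the 27 hnRNP promoters and 47.4% of all 76, against 33.8% of all promoters. By call its shares were 48.6% (rose), 46.2% (fell) and 45.8% (not called). The other motifs searched were TGACGTC (6.58% of the 76, 2.78% of all), CACGTG (10.5%, 6.02%), TATAAA (6.58%, 12.4%), GAANNTTC (9.21%, 6.69%) and AAGATGG (1.32%, 4.49%). Several promoters can belong to 1 gene, and the shares are a description with no test. The 32851 promoters belong to 27025 genes, more than the 13602 tested, so they include genes that did not pass the filter on low counts. No share was computed for promoters of tested genes alone.

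The SR family rose with iBRD9: 8 of its 10 tested genes (80%) were called higher, where 29.8% of all tested genes were. The log2 fold changes of all 10 were above 0, with a median of 0.92. Their CPM summed to 2179, 2268 and 2265 with iBRD9 and 1704, 1225 and 1200 with DMSO. The groups did not overlap for 8 of the 10 genes (80%), where they did not for 68.0% of all tested genes. Without DMSO replicate 1 the count was 9 and the median 1.11, and the lowest median on leaving out a library was 0.78, without DMSO replicate 2. With no filter on low counts, Srsf5 and Srsf2 were no longer called (log2 fold changes of 1.16 and 0.90).

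Srsf5 (ENSMUSG00000021134), an SR protein with a pair of RNA recognition motifs, changed most. It had 310.4, 311 and 306 CPM with iBRD9, against 212, 103 and 97.8 CPM with DMSO. The DMSO libraries were all lower, and replicate 1 lay between the treated libraries and the other controls. The log2 fold change was 1.17 (edgeR adjusted p = 0.00496, SE 0.26) by edgeR's quasi-likelihood test, a 2.25-fold difference in fitted level. Srsf10 (ENSMUSG00000028676), which represses splicing when it is dephosphorylated, had 319, 318 and 313 CPM with iBRD9, against 179.6, 123 and 126 CPM with DMSO. All treated libraries exceeded all controls, with a log2 fold change of 1.15 (edgeR adjusted p = 0.000183, SE 0.13). Srsf11 (ENSMUSG00000055436), an SR protein of nuclear speckles, had 241, 229 and 224 CPM with iBRD9, against 144, 92.0 and 86.5 CPM with DMSO, with the same order of the groups and a log2 fold change of 1.10 (edgeR adjusted p = 0.000816, SE 0.17).

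Srsf4 (ENSMUSG00000028911), a large SR protein, had tight groups. It had 52.3, 51.7 and 49.2 CPM with iBRD9, against 28.1, 25.4 and 23.8 CPM with DMSO. Its DMSO replicate 1 lay close to the other controls, and the log2 fold change was 0.99 (edgeR adjusted p = 2.75e-05, SE 0.077). Srsf7 (ENSMUSG00000024097), a zinc knuckle SR protein that also serves mRNA export, had 157, 166 and 174 CPM with iBRD9, against 113, 73.5 and 71.5 CPM with DMSO, a log2 fold change of 0.95 (edgeR adjusted p = 0.00124, SE 0.16). Srsf2 (ENSMUSG00000034120), also known as SC35 and long used as a marker of nuclear speckles, had 146, 156 and 155 CPM with iBRD9, against 118, 61.4 and 64.8 CPM with DMSO. Its groups did not overlap, and DMSO replicate 1 was nearer to the treated libraries than to the other controls; the log2 fold change was 0.90 (edgeR adjusted p = 0.0074, SE 0.22). Exons of Srsf2 overlap those of Mfsd11 on the other strand, which averaged 73.3 CPM with iBRD9 and 115 CPM with DMSO, and reads shared by the pair cannot be assigned without strand.

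Srsf6 (ENSMUSG00000016921), a relative of Srsf4 and Srsf5, had 195, 210.2 and 212 CPM with iBRD9, against 163, 113 and 108 CPM with DMSO, and its log2 fold change was 0.68 (edgeR adjusted p = 0.00342, SE 0.14). Srsf3 (ENSMUSG00000071172), a small SR protein and an export adaptor, had 327, 348 and 347 CPM with iBRD9, against 309, 230.0 and 224 CPM with DMSO. Its groups did not overlap, though DMSO replicate 1 came close to the lowest treated library. The log2 fold change was 0.42 (edgeR adjusted p = 0.0132, SE 0.12), and the call was lost without DMSO replicate 2 (0.35). Srsf1 (ENSMUSG00000018379), the founding SR protein and a known oncoprotein, had 310.2, 356 and 352 CPM with iBRD9, against 327, 283 and 277 CPM with DMSO. DMSO replicate 1 exceeded iBRD9 replicate 1, and the log2 fold change of 0.20 (edgeR adjusted p = 0.0667, SE 0.083) did not pass. It did pass without DMSO replicate 1 (0.27) and without iBRD9 replicate 1 (0.26). Srsf9 (ENSMUSG00000029538), the short paralog of Srsf1, had 119, 123 and 134 CPM with iBRD9, against 110.0, 120.0 and 120.5 CPM with DMSO, overlapping groups and a log2 fold change of 0.10 (edgeR adjusted p = 0.216, SE 0.067). Group means were also taken per kilobase of annotated exon, with the exons of all transcripts of a gene merged. With iBRD9, Srsf5 (77.5 CPM per kb) and Srsf9 (75.9) were the highest SR genes, close together, and their order was not tested. With DMSO, Srsf9 was the highest at 70.7, and Srsf5 was at 34.5.

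**Figure D3:**
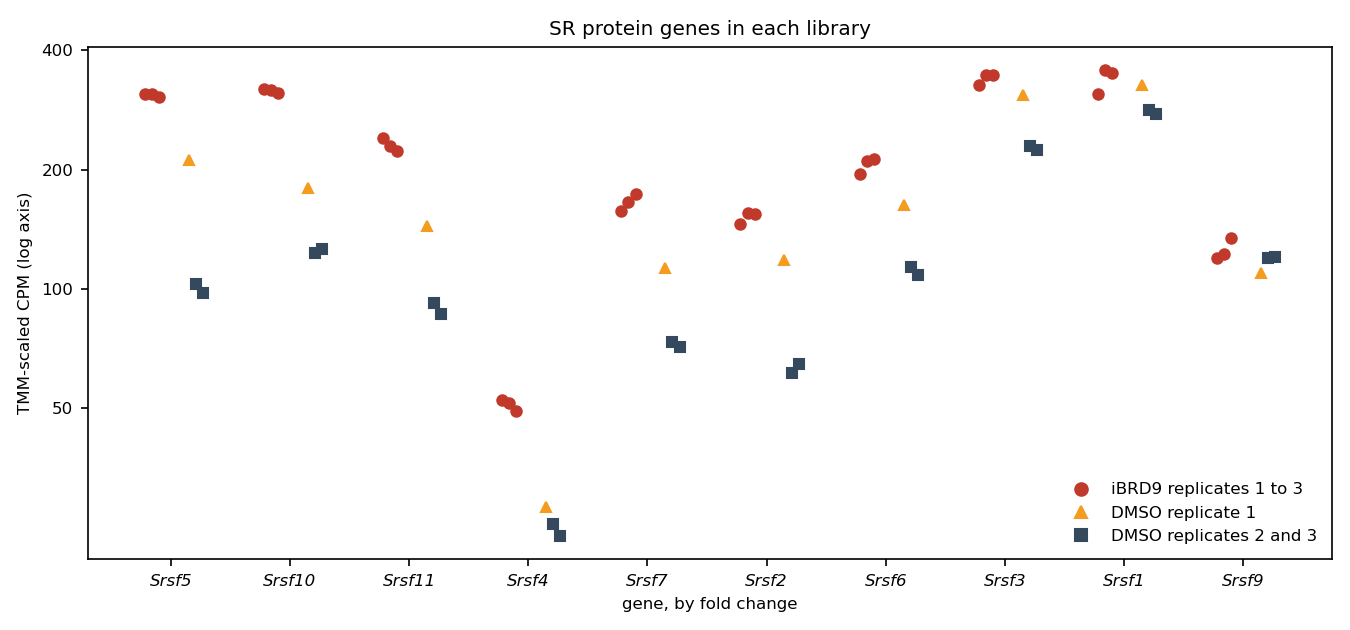
TMM-scaled CPM of the tested SR genes in each library on a log axis, with iBRD9 libraries left of DMSO libraries and DMSO replicate 1 marked apart. The iBRD9 points lie above every DMSO point for all but Srsf1 and Srsf9, and DMSO replicate 1 is the highest DMSO point for all but Srsf9.

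Among the hnRNP genes 9 of 20 rose and 2 fell (45% and 10%), where 29.8% of all tested genes rose and 30.9% fell. The median log2 fold change of the family was 0.28. Scaled by library size alone, 13 rose and 1 fell. Summed CPM was 7592, 7778 and 7800 with iBRD9 and 7305, 5744 and 5660 with DMSO, so DMSO replicate 1 lay nearer to the treated libraries than to the other controls. Without DMSO replicate 1, 14 rose and the median was 0.40; without DMSO replicate 2, 5 rose and 1 fell. The count that fell was also 1 without iBRD9 replicate 1 and without iBRD9 replicate 3. With no filter on low counts 6 rose: Hnrnph1 (1.01), Hnrnpu (0.50) and Hnrnpa2b1 (0.49) were no longer called.

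Hnrnpdl (ENSMUSG00000029328), a relative of the AU-rich element binding protein hnRNP D, had 272, 278 and 281 CPM with iBRD9, against 165, 108 and 109.9 CPM with DMSO. All treated libraries exceeded all controls, and the log2 fold change was 1.12 (edgeR adjusted p = 0.000386, SE 0.15). Hnrnph1 (ENSMUSG00000007850), which binds runs of G, had 445, 427 and 428 CPM with iBRD9, against 319, 165 and 157 CPM with DMSO. DMSO replicate 1 was far above the other controls and still under every treated library, with a log2 fold change of 1.02 (edgeR adjusted p = 0.00636, SE 0.24). Hnrnpl (ENSMUSG00000015165), a CA-repeat binding protein, had 387, 398 and 395 CPM with iBRD9, against 314, 219 and 214 CPM with DMSO, in groups that did not overlap, and its log2 fold change was 0.66 (edgeR adjusted p = 0.00318, SE 0.14). Hnrnpa0 (ENSMUSG00000007836), an AU-rich element binding member of the A/B group and one of the promoters shown, had 149.7, 154 and 168 CPM with iBRD9, against 120.1, 105 and 106 CPM with DMSO. Its groups did not overlap, its controls were close together, and the log2 fold change was 0.51 (edgeR adjusted p = 0.000556, SE 0.074).

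Hnrnpa2b1 (ENSMUSG00000004980), a silencer-binding protein, was the most abundant of the 65 genes per kilobase of exon, at 298 CPM per kb with iBRD9 and 211 with DMSO. It had 1965, 1959 and 1966 CPM with iBRD9, against 1752, 1211 and 1203 CPM with DMSO. The treated libraries were nearly equal, whereas DMSO replicate 1 stood well above the other controls; the log2 fold change was 0.50 (edgeR adjusted p = 0.0129, SE 0.14). Hnrnpu (ENSMUSG00000039630), a nuclear scaffold attachment protein, had 156, 144 and 143 CPM with iBRD9, against 134, 88.2 and 90.1 CPM with DMSO, a log2 fold change of 0.50 (edgeR adjusted p = 0.017, SE 0.15). Hnrnpm (ENSMUSG00000059208), which binds GU-rich RNA, had a log2 fold change of 0.43 (edgeR adjusted p = 0.0143, SE 0.12), and Hnrnph3, a small H-type protein, one of 0.51 (edgeR adjusted p = 0.0178, SE 0.15). All 4 of these calls were lost on leaving out DMSO replicate 2, with log2 fold changes of 0.40, 0.39, 0.35 and 0.43 in the order named. Hnrnpu and Hnrnpm were also lost without iBRD9 replicate 1 (0.46 and 0.42), and Hnrnph3 without iBRD9 replicate 3 (0.45) or DMSO replicate 3 (0.39). Exons of Hnrnpm overlap those of March2 on the same strand, which averaged 48.5 CPM with iBRD9 and 41.3 CPM with DMSO. Exons of Hnrnph3 overlap those of Rufy2 on the other strand, which averaged 63.3 CPM with iBRD9 and 53.9 CPM with DMSO. Hnrnph3 itself averaged 21.8 CPM with iBRD9 and 15.3 CPM with DMSO. The part of shared reads in these calls was not tested.

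A pair of hnRNP U relatives moved in opposite directions. Hnrnpul2 (ENSMUSG00000071659) had 341, 331 and 358 CPM with iBRD9, against 286, 263 and 263 CPM with DMSO. It rose without overlap, with a log2 fold change of 0.34 (edgeR adjusted p = 0.00146, SE 0.061). Hnrnpul1 (ENSMUSG00000040725) had 183, 190.1 and 192 CPM with iBRD9, against 241, 249 and 253 CPM with DMSO. Every treated library was below every control, with a log2 fold change of -0.40 (edgeR adjusted p = 0.000336, SE 0.052). Hnrnpc (ENSMUSG00000060373), which binds U tracts and keeps U2AF off cryptic exons, had 200.0, 219 and 217 CPM with iBRD9, against 236, 247 and 241 CPM with DMSO. The groups did not overlap, and the log2 fold change was -0.19 (edgeR adjusted p = 0.0203, SE 0.057). That call was lost without iBRD9 replicate 1 (-0.15), iBRD9 replicate 3 (-0.21) or DMSO replicate 2 (-0.18), and with scaling by library size alone (-0.081).

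The other 9 hnRNP genes did not pass. Hnrnpa1 (ENSMUSG00000046434), a classical exon silencer-binding protein, had 243, 256 and 259 CPM with iBRD9, against 303, 211 and 199 CPM with DMSO. DMSO replicate 1 was the highest of all 6 libraries and the other controls the lowest, with a log2 fold change of 0.087 (edgeR adjusted p = 0.614, SE 0.14). Without DMSO replicate 1 it passed, at 0.29, as did Hnrnpa3 (0.46), Hnrnpd (0.43), Hnrnpr (0.29) and Hnrnph2 (0.26). Hnrnpa1 has many processed pseudogenes, and how reads shared with them were counted is not given in the sources used here. Hnrnpk (ENSMUSG00000021546), which binds C-rich RNA, had 624, 690.5 and 670.1 CPM with iBRD9, against 654, 624 and 611 CPM with DMSO, overlapping groups and a log2 fold change of 0.071 (edgeR adjusted p = 0.345, SE 0.062). The log2 fold changes of the other 7 lay between -0.12 (Hnrnpf) and 0.28 (Hnrnpd).

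**Figure D4:**
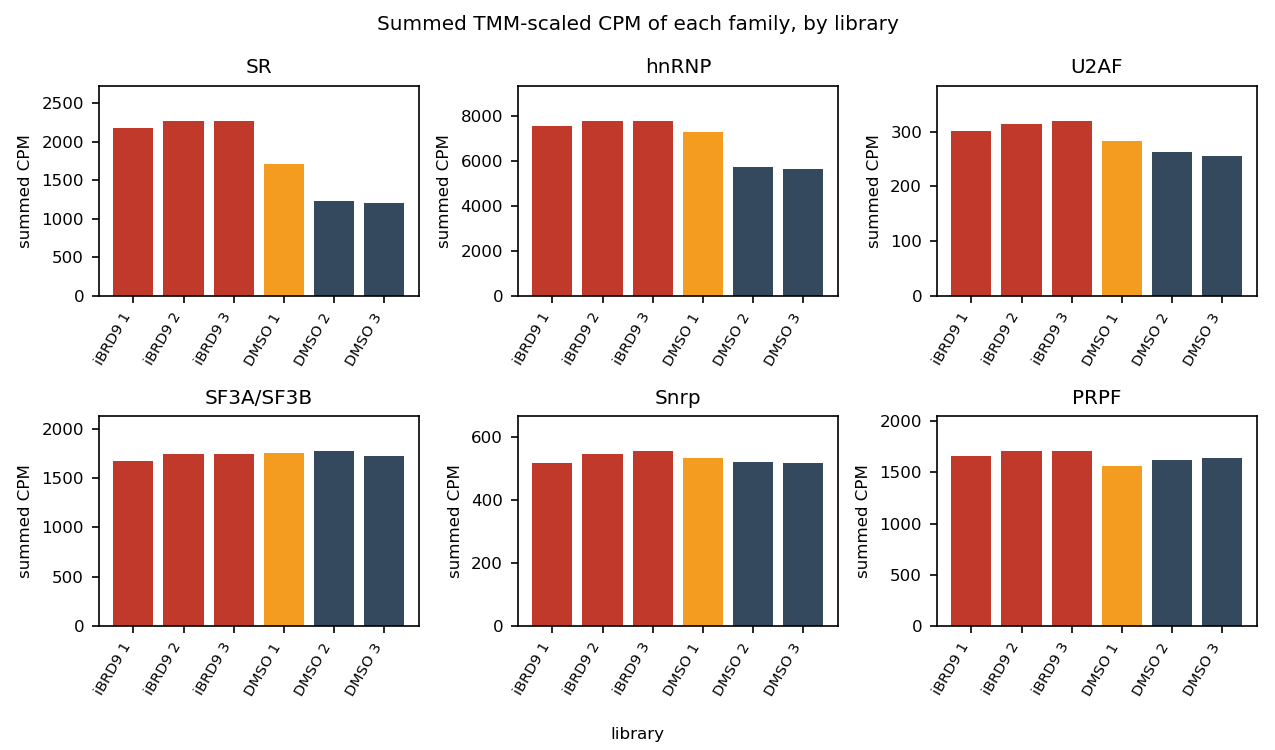
Summed TMM-scaled CPM of each family in each library, on axes that start at 0, with iBRD9 libraries left of DMSO libraries. The SR sums lie between 2179 and 2268 with iBRD9, above all DMSO sums, while the SF3A and SF3B sums of the groups overlap.

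Of the U2AF heterodimer the small subunit rose and the large one did not pass. U2af1 (ENSMUSG00000061613), the small subunit that reads the AG dinucleotide, had 72.3, 72.5 and 77.2 CPM with iBRD9, against 53.9, 38.9 and 37.0 CPM with DMSO. Its groups did not overlap, and the log2 fold change was 0.78 (edgeR adjusted p = 0.00122, SE 0.13). U2af2 (ENSMUSG00000030435), the large subunit that binds the polypyrimidine tract, had 222, 233 and 233 CPM with iBRD9, against 221, 217 and 211 CPM with DMSO. The groups just failed to overlap, and the log2 fold change of 0.084 (edgeR adjusted p = 0.189, SE 0.052) did not pass. U2af1l4 (ENSMUSG00000078765), a low-abundance paralog of the small subunit, had 7.18, 9.61 and 9.41 CPM with iBRD9, against 9.16, 7.65 and 8.35 CPM with DMSO, overlapping groups and a log2 fold change of 0.055 (edgeR adjusted p = 0.751, SE 0.14). Exons of U2af1l4 overlap those of Psenen, which averaged 23.5 CPM with iBRD9 and 39.2 CPM with DMSO.

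The SF3A and SF3B genes, which encode the part of the U2 snRNP that holds the branch point, split into 3 that rose and 6 that fell. These are 33.3% and 66.7%, where 29.8% of all tested genes rose and 30.9% fell, so the share of rises is near that of all tested genes. For all 9 genes the groups did not overlap (100%), where they did not for 68.0% of all tested genes. The median log2 fold change of the family was -0.22, and Sf3a2 was the one gene in it that differed by more than 1.5-fold. With scaling by library size alone, 3 rose and 3 fell. The summed CPM of 1672, 1749 and 1743 with iBRD9 overlapped that of 1755, 1776 and 1721 with DMSO.

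Sf3a2 (ENSMUSG00000020211), a subunit of SF3A, fell furthest. It had 31.6, 31.5 and 31.5 CPM with iBRD9, against 42.0, 51.4 and 52.6 CPM with DMSO. The treated libraries were nearly equal and under every control, and the log2 fold change was -0.63 (edgeR adjusted p = 0.000558, SE 0.091). Its exons overlap those of Plekhj1 on the other strand, which averaged 25.6 CPM with iBRD9 and 36.9 CPM with DMSO. Sf3b4 (ENSMUSG00000068856), whose human gene is mutated in Nager syndrome, had 62.8, 63.1 and 67.4 CPM with iBRD9, against 89.7, 96.1 and 94.8 CPM with DMSO, also without overlap, and a log2 fold change of -0.54 (edgeR adjusted p = 0.000162, SE 0.061). Sf3b6 (ENSMUSG00000037361), the p14 protein that sits at the branch adenosine, had 32.4, 34.9 and 35.5 CPM with iBRD9, against 41.6, 42.0 and 41.9 CPM with DMSO. The spread within each group was small beside the difference, and the log2 fold change was -0.29 (edgeR adjusted p = 0.00495, SE 0.064). Sf3b2 (ENSMUSG00000024853), a scaffold subunit of SF3B, had 238, 252 and 244 CPM with iBRD9, against 283, 296 and 282 CPM with DMSO, a log2 fold change of -0.23 (edgeR adjusted p = 0.00581, SE 0.053).

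Sf3a1 and Sf3a3, the other subunits of SF3A, fell less, with log2 fold changes of -0.22 (edgeR adjusted p = 0.0136, SE 0.061) and -0.18 (edgeR adjusted p = 0.0115, SE 0.049). The Sf3a1 call was lost without iBRD9 replicate 1 (-0.21), iBRD9 replicate 2 (-0.22) or DMSO replicate 2 (-0.19), and the Sf3a3 call without DMSO replicate 2 (-0.18). Both, and Sf3b2, were also lost with scaling by library size alone (-0.11, -0.078 and -0.12).

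On the other side, Sf3b5 (ENSMUSG00000078348), a small SF3B subunit, had 98.8, 114 and 117 CPM with iBRD9, against 88.6, 97.4 and 86.8 CPM with DMSO. The lowest treated library was just above the highest control, and the log2 fold change was 0.27 (edgeR adjusted p = 0.0178, SE 0.081). Sf3b3 (ENSMUSG00000033732), a beta-propeller scaffold protein, had 366, 399 and 390.2 CPM with iBRD9, against 361, 328 and 309 CPM with DMSO, a log2 fold change of 0.21 (edgeR adjusted p = 0.0303, SE 0.071). Its exons overlap those of Cog4, which averaged 74.9 CPM with iBRD9 and 102 CPM with DMSO. Sf3b1 (ENSMUSG00000025982), the subunit that grips the branch helix and is mutated in uveal melanoma, had 503, 509 and 508 CPM with iBRD9, against 469, 453 and 456 CPM with DMSO. The groups were separate but close, with a log2 fold change of 0.14 (edgeR adjusted p = 0.039, SE 0.051). All 3 of these rises were lost without iBRD9 replicate 2 (0.25, 0.18 and 0.14), without iBRD9 replicate 3 (0.22, 0.20 and 0.14) or without DMSO replicate 3 (0.23, 0.15 and 0.13). Without DMSO replicate 2, Sf3b3 (0.20) and Sf3b1 (0.12) were lost, and without iBRD9 replicate 1, Sf3b1 (0.15), which was also not called with no filter on low counts (0.14).

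Of the 10 tested Snrp genes 5 rose and 2 fell (50% and 20%), where 29.8% of all tested genes rose and 30.9% fell. The median log2 fold change of the family was 0.18. The proteins of the Sm ring, which encircles the U1, U2, U4 and U5 RNAs, did not move as one. Snrpd1 (ENSMUSG00000002477) had 45.5, 54.1 and 50.1 CPM with iBRD9, against 40.3, 29.5 and 27.9 CPM with DMSO, and its log2 fold change was 0.61 (edgeR adjusted p = 0.00488, SE 0.14). Snrpg (ENSMUSG00000057278) had 17.9, 16.6 and 19.5 CPM with iBRD9, against 14.8, 12.2 and 12.5 CPM with DMSO, a log2 fold change of 0.45 (edgeR adjusted p = 0.0068, SE 0.11). Snrpd2 (ENSMUSG00000040824) had 43.7, 45.2 and 49.8 CPM with iBRD9, against 32.5, 35.5 and 34.9 CPM with DMSO, a log2 fold change of 0.43 (edgeR adjusted p = 0.00136, SE 0.074). In each of these 3 ring proteins every treated library exceeded every control.

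Snrpd3 (ENSMUSG00000020180), a ring protein too, had 47.0, 50.6 and 50.4 CPM with iBRD9, against 43.3, 34.9 and 32.9 CPM with DMSO, without overlap, and a log2 fold change of 0.41 (edgeR adjusted p = 0.00829, SE 0.10); its exons overlap those of Gucd1. Snrpb (ENSMUSG00000027404), the gene of the ring protein SmB, went the other way. It had 122, 128 and 129.8 CPM with iBRD9, against 143, 159.9 and 164 CPM with DMSO, with every treated library below every control and a log2 fold change of -0.30 (edgeR adjusted p = 0.00502, SE 0.067). Snrpe, the ring's E protein, had a log2 fold change of 0.077 and did not pass. Summed CPM of the family was 517, 546 and 555 with iBRD9 and 534, 520.0 and 516 with DMSO, so the summed level of the groups overlapped.

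Among the snRNP-specific proteins, Snrpa (ENSMUSG00000061479), the U1-A protein that binds a U1 stem loop, had 49.8, 48.4 and 49.8 CPM with iBRD9, against 60.1, 61.1 and 61.2 CPM with DMSO. Both groups were tight and separate, with a log2 fold change of -0.30 (edgeR adjusted p = 0.00181, SE 0.055). Snrpa1, the U2-A′ protein, rose with a log2 fold change of 0.25 (edgeR adjusted p = 0.00993, SE 0.065), a call lost without iBRD9 replicate 2 (0.22). Its U2 partner Snrpb2 (0.12) and the U1-C gene Snrpc (-0.16) did not pass. Without DMSO replicate 1 the count that rose was 8 in place of 5: Snrpb2 (0.15), Snrpe (0.16) and Snrpf (at very low counts) were added. Snrpc was then added to the genes that fell.

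Of the 13 PRPF genes 4 rose and 2 fell, or 30.8% and 15.4%, where 29.8% of all tested genes rose and 30.9% fell. The share of rises is close to that of all tested genes, and the share of falls is under it. For 7 of the 13 genes (53.8%, where it is 68.0% of all tested genes) the groups did not overlap. The median log2 fold change was 0.086, and without DMSO replicate 1 it was -0.0092, with Prpf38a (0.55) and Prpf4 (0.22) added to the genes that rose and Prpf18 (-0.12) among the genes that fell, which were then 4. Prpf39 (ENSMUSG00000035597), a U1-associated alternative splicing factor, had 78.0, 70.8 and 69.1 CPM with iBRD9, against 53.0, 24.7 and 22.7 CPM with DMSO. DMSO replicate 1 was far above the other controls, and the log2 fold change was 1.12 (edgeR adjusted p = 0.00842, SE 0.28). The Prpf39 call was lost with no filter on low counts (1.11), and its exons overlap those of Fkbp3, which averaged 44.0 CPM with iBRD9 and 34.0 CPM with DMSO. Prpf38b (ENSMUSG00000027881), an SR-like relative of a factor needed for activation in yeast, had 149.9, 142 and 138 CPM with iBRD9, against 99.4, 88.7 and 97.5 CPM with DMSO. Here the controls were alike, and the log2 fold change was 0.59 (edgeR adjusted p = 0.000141, SE 0.065). Prpf40b (ENSMUSG00000023007), a relative of the yeast U1 protein Prp40, had 55.4, 52.9 and 54.8 CPM with iBRD9, against 37.9, 34.9 and 36.6 CPM with DMSO, with tight groups and a log2 fold change of 0.58 (edgeR adjusted p = 0.000124, SE 0.062). Prpf4b (ENSMUSG00000021413), a kinase of the tri-snRNP, had 156, 161 and 158 CPM with iBRD9, against 116, 109 and 105 CPM with DMSO. All treated libraries exceeded all controls, with a log2 fold change of 0.53 (edgeR adjusted p = 0.000119, SE 0.057).

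The PRPF genes that fell were Prpf19 and Prpf6. Prpf19 (ENSMUSG00000024735), the ubiquitin ligase of the complex named for it, had 127, 143 and 147 CPM with iBRD9, against 169.9, 191 and 194 CPM with DMSO. Every treated library was below every control, and the log2 fold change was -0.42 (edgeR adjusted p = 0.00193, SE 0.077). Prpf6 (ENSMUSG00000002455), which bridges U5 and U4/U6 in the tri-snRNP, had 80.0, 80.8 and 82.1 CPM with iBRD9, against 87.7, 115 and 118 CPM with DMSO. The treated libraries were close together and DMSO replicate 1 was the lowest control, with a log2 fold change of -0.40 (edgeR adjusted p = 0.0109, SE 0.11). Prpf8 (ENSMUSG00000020850), the scaffold of the catalytic core, had 656, 675 and 685 CPM with iBRD9, against 627, 688 and 688 CPM with DMSO, overlapping groups and a log2 fold change of 0.0090 (edgeR adjusted p = 0.906, SE 0.061). The tri-snRNP proteins Prpf3, Prpf4 and Prpf31, whose human genes are linked to retinitis pigmentosa, had log2 fold changes of 0.086, 0.15 and -0.069 and did not pass. Nor did Prpf18 (-0.12), which acts at exon ligation.

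Close relatives were set against each other as the log2 ratio of their CPM within a library, which scaling between libraries barely moves. Of 19 pairs listed 17 could be computed; Srsf12 was too low, and the pair of Snrpb with Snrpn was not analysed here. The groups did not overlap for 14 of the 17, each with an exact two-sided permutation p of 0.1, the smallest that 3 against 3 allows, and an adjusted p of 0.12 over the 17 pairs. No pair could therefore pass the threshold.

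Hnrnph1 and its G-run binding relatives were furthest apart. Hnrnpf (ENSMUSG00000042079) had 499, 551 and 529.9 CPM with iBRD9, against 600.1, 562 and 559 CPM with DMSO. It did not pass, and the log2 ratio of Hnrnph1 to Hnrnpf was -0.28 ± 0.11 with iBRD9 and -1.50 ± 0.51 with DMSO (SD, n = 3 each), a difference of 1.22. Hnrnph2 (ENSMUSG00000045427) had 126, 123 and 129.7 CPM with iBRD9, against 127, 105 and 105 CPM with DMSO, and the ratio of Hnrnph1 to it was 1.78 ± 0.050 with iBRD9 and 0.85 ± 0.41 with DMSO, a difference of 0.92. In DMSO replicate 1 these ratios were -0.91 and 1.33, between the treated libraries and the other controls. Hnrnpll (ENSMUSG00000024095), a regulator of CD45 splicing in T cells, had 207, 209 and 213 CPM with iBRD9, against 224, 196 and 207 CPM with DMSO, and the ratio of Hnrnpl to it was 0.91 ± 0.023 with iBRD9 and 0.23 ± 0.23 with DMSO.

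In the D group, Hnrnpd (ENSMUSG00000000568), the AU-rich element binding protein AUF1, had 210.1, 217 and 226 CPM with iBRD9, against 215, 162 and 159.6 CPM with DMSO. Its ratio to Hnrnpdl was -0.35 ± 0.028 with iBRD9 and 0.50 ± 0.11 with DMSO, a difference of -0.85. Hnrnpab (ENSMUSG00000020358), a further relative, had 227, 244 and 244 CPM with iBRD9, against 269, 243 and 235 CPM with DMSO, and the ratio of Hnrnpd to it differed by 0.36. In the A group, the ratio of Hnrnpa1 to Hnrnpa2b1 was -2.96 ± 0.050 with iBRD9 and -2.55 ± 0.040 with DMSO, a difference of -0.41. Here DMSO replicate 1 lay among the other controls, although the CPM of each gene was high in it. Hnrnpa3 (ENSMUSG00000059005), a further A/B protein, had 619.9, 654 and 638 CPM with iBRD9, against 658, 467 and 452 CPM with DMSO, and the ratio of Hnrnpa1 to it differed by -0.19.

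The ratio of Hnrnpul1 to Hnrnpul2 was -0.87 ± 0.057 with iBRD9 and -0.13 ± 0.10 with DMSO, a difference of -0.74 in which both members had changed in opposite directions. The ratio of U2af1 to U2af1l4 was 3.08 ± 0.21 with iBRD9 and 2.34 ± 0.20 with DMSO. Among SR pairs, the ratio of Srsf5 to Srsf6 differed by 0.56, that of Srsf4 to Srsf6 by 0.28 and that of Srsf3 to Srsf7 by -0.54. Snrpb2 (ENSMUSG00000008333) had 32.0, 30.7 and 33.4 CPM with iBRD9, against 31.0, 28.1 and 29.3 CPM with DMSO, and the ratio of Snrpa to it differed by -0.42. The groups overlapped for Srsf1 against Srsf9 (0.098, exact p = 0.6), for Hnrnpu against Hnrnpul2 (0.18, exact p = 0.4) and for Prpf38a against Prpf38b (-0.26, exact p = 0.4), where Prpf38a had 23.7, 27.5 and 26.5 CPM with iBRD9, against 28.0, 17.6 and 17.5 CPM with DMSO.

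**Figure D5:**
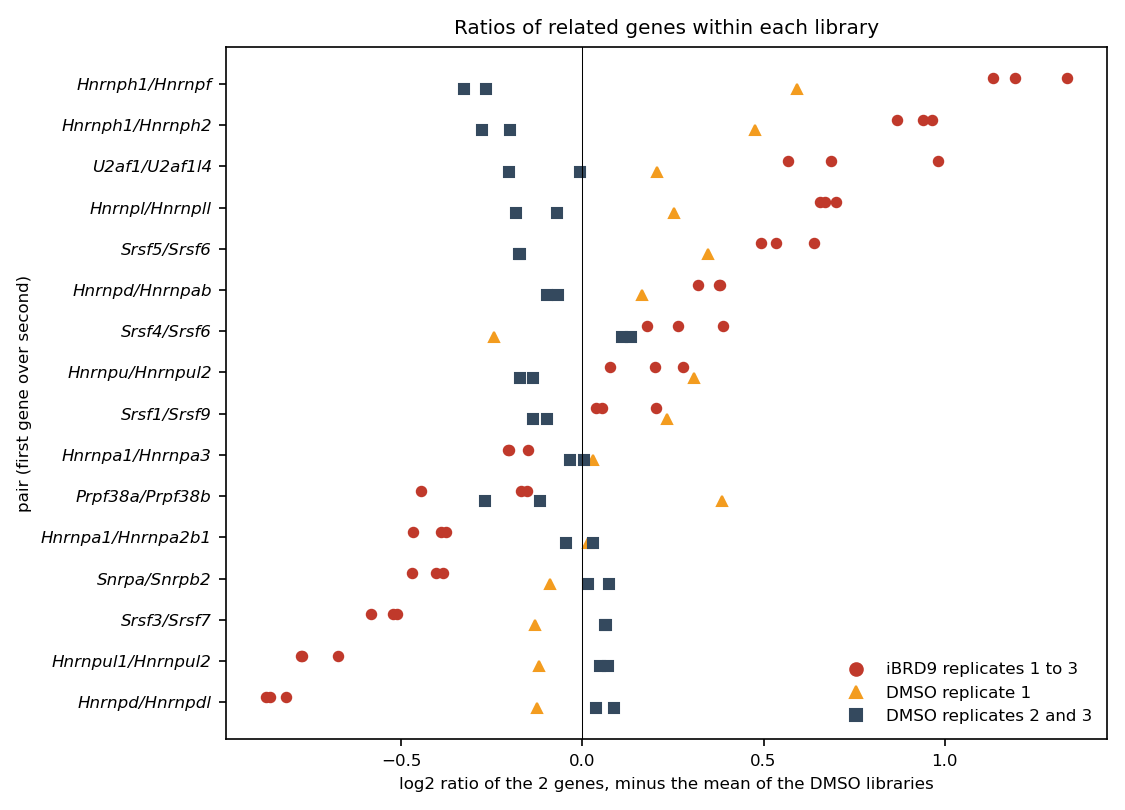
Log2 ratio of TMM-scaled CPM of the related genes in each pair (x axis; 1 pair is not drawn), per library, less the mean ratio of the DMSO libraries, with iBRD9 points drawn above DMSO points for each pair and DMSO replicate 1 as a triangle. The largest difference is that of Hnrnph1 to Hnrnpf, -0.28 with iBRD9 and -1.50 with DMSO on average.

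Proteins that work with these families but carry other names were taken from 5 lists, also chosen with earlier results of these data known. Of the SR-related proteins and SR kinases, 22 of 27 tested rose and 1 fell, or 81.5% and 3.70%. Of all tested genes 29.8% rose and 30.9% fell. The median log2 fold change of the list was 0.50. Rsrp1, an arginine and serine rich protein, had 471, 409 and 405 CPM with iBRD9, against 275, 97.9 and 98.7 CPM with DMSO, a log2 fold change of 1.45 (edgeR adjusted p = 0.00852, SE 0.36). Pnn, the speckle protein pinin, had 148, 148 and 143 CPM with iBRD9, against 92.4, 47.5 and 46.6 CPM with DMSO, a log2 fold change of 1.24 (edgeR adjusted p = 0.0022, SE 0.24). In both, DMSO replicate 1 lay between the treated libraries and the other controls, and Rsrp1 was not called with no filter on low counts (1.44). Tnpo3, the importin that carries SR proteins into the nucleus, was the one that fell. It had 246, 257 and 252 CPM with iBRD9, against 278, 332 and 326 CPM with DMSO, a log2 fold change of -0.31 (edgeR adjusted p = 0.00673, SE 0.074), and 3 of the list were lower without DMSO replicate 1.

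Of 70 other spliceosome proteins, 21 rose and 11 fell, with a median of 0.078. The share that rose, 30%, is near the 29.8% of all tested genes, and the share that fell is 15.7%, where 30.9% of all tested genes fell. The count that fell was 21 without DMSO replicate 1, and with library size alone 32 rose and 9 fell. The U1-associated Luc7l3 had 179, 182 and 177 CPM with iBRD9, against 119.7, 72.1 and 66.9 CPM with DMSO. Its relative Luc7l had 133, 131 and 128 CPM with iBRD9, against 91.7, 46.6 and 50.2 CPM with DMSO. All treated libraries of both exceeded all controls, with log2 fold changes of 1.06 (edgeR adjusted p = 0.00175, SE 0.19) and 1.06 (edgeR adjusted p = 0.00383, SE 0.22); with no filter on low counts Luc7l was not called (1.05). Usp39, a tri-snRNP protein, had 82.3, 82.4 and 83.5 CPM with iBRD9, against 124, 175 and 184 CPM with DMSO, a log2 fold change of -0.96 (edgeR adjusted p = 0.000427, SE 0.13). Txnl4b, a paralog of a U5 protein, had 11.1, 11.4 and 10.7 CPM with iBRD9, against 16.1, 20.9 and 21.0 CPM with DMSO, a log2 fold change of -0.80 (edgeR adjusted p = 0.000605, SE 0.12); every treated library of both was below every control.

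Of the other splicing regulators, 22 of 49 tested rose and 13 fell, with a median of 0.17 (30 and 7 with library size alone). The shares of 44.9% and 26.5% stand beside 29.8% and 30.9% of all tested genes. Nova1, best known as a neuronal regulator, had 8.70, 10.8 and 12.2 CPM with iBRD9, against 5.90, 4.26 and 4.97 CPM with DMSO, a log2 fold change of 1.07 (edgeR adjusted p = 0.000853, SE 0.17). Rbm25, which binds U1-associated proteins, had 289, 272 and 266 CPM with iBRD9, against 168, 129 and 139 CPM with DMSO, a log2 fold change of 0.92 (edgeR adjusted p = 0.000107, SE 0.097). Esrp1, an epithelial regulator, was low in all libraries and fell. It had 1.27, 0.800 and 1.73 CPM with iBRD9, against 3.39, 4.14 and 3.20 CPM with DMSO, a log2 fold change of -1.50 (edgeR adjusted p = 0.00141, SE 0.26). Qk, the quaking protein of the STAR family, was abundant and had 712, 712 and 716 CPM with iBRD9, against 1161, 1395 and 1484 CPM with DMSO, a log2 fold change of -0.92 (edgeR adjusted p = 7.98e-05, SE 0.091).

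Of the 28 tested genes of snRNP assembly and import, 8 rose and 9 fell, with a median of -0.12. These shares, 28.6% and 32.1%, are near the 29.8% and 30.9% of all tested genes. The count that rose was 5 without iBRD9 replicate 2, iBRD9 replicate 3 or DMSO replicate 3, and the count that fell was 15 without DMSO replicate 1. Srrt, a partner of the cap-binding complex, had 255, 259 and 272 CPM with iBRD9, against 198, 136 and 129 CPM with DMSO, a log2 fold change of 0.76 (edgeR adjusted p = 0.00229, SE 0.15). Snupn, the import adaptor of capped snRNPs, had 9.19, 10.6 and 10.0 CPM with iBRD9, against 6.08, 5.80 and 5.86 CPM with DMSO, a log2 fold change of 0.75 (edgeR adjusted p = 0.000491, SE 0.11). Prmt5, which methylates Sm proteins, fell. It had 46.3, 51.8 and 51.4 CPM with iBRD9, against 65.7, 83.4 and 82.5 CPM with DMSO, a log2 fold change of -0.63 (edgeR adjusted p = 0.000868, SE 0.10). Gemin2, a partner of SMN in loading the Sm ring, had 6.95, 8.48 and 8.44 CPM with iBRD9, against 11.7, 12.0 and 11.7 CPM with DMSO, a log2 fold change of -0.57 (edgeR adjusted p = 0.00221, SE 0.11).

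Of the 19 genes of the exon junction complex and nonsense-mediated decay, 6 rose and 7 fell, with a median of -0.052. These shares, 31.6% and 36.8%, are near the 29.8% and 30.9% of all tested genes. In this list 4 fell without iBRD9 replicate 1, and with library size alone 7 rose and 5 fell. Upf3a, a decay factor that can act as an antagonist of its paralog, had 82.2, 85.2 and 86.1 CPM with iBRD9, against 45.1, 46.3 and 48.0 CPM with DMSO, a log2 fold change of 0.86 (edgeR adjusted p = 1.45e-05, SE 0.059). Rbm8a, a core exon junction protein, had 55.0, 60.7 and 57.1 CPM with iBRD9, against 38.9, 31.1 and 29.6 CPM with DMSO, a log2 fold change of 0.80 (edgeR adjusted p = 0.000347, SE 0.10). Magohb, its low-abundance binding partner, had 4.81, 5.04 and 4.86 CPM with iBRD9, against 7.42, 6.98 and 7.29 CPM with DMSO, a log2 fold change of -0.56 (edgeR adjusted p = 0.00224, SE 0.11). Every treated library of Magohb was below every control, the reverse of Rbm8a. Its more abundant relative Magoh rose without overlap, as Rbm8a did. Magoh averaged 78.3 CPM with iBRD9 and 58.8 CPM with DMSO, a log2 fold change of 0.41 (edgeR adjusted p = 0.00212, SE 0.078). Etf1, the translation release factor that reads stop codons, had 295, 317 and 309.8 CPM with iBRD9, against 384, 493 and 505 CPM with DMSO, a log2 fold change of -0.58 (edgeR adjusted p = 0.00139, SE 0.10).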

How the data were processed

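The submitters' processing notes name CASAVA 1.8.2, Bowtie2 2.4.5 and the build GRCm39; for the counting program, annotation, strand setting and multi-mapping reads the sources used here state nothing. Per the labels' protocols, mRNA was selected with polyT beads and cDNA started from random hexamers. The deposited table holds raw whole-number counts per Ensembl gene for 6 libraries, with totals of 22846391 to 29680952, which set the counting precision. Symbols came from the reference name table (34490 of 35275 IDs).

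The whole table was fitted with edgeR 4.0.16 in R 4.3.3: filterByExpr (minimum count 10), TMM, treatment only, robust quasi-likelihood F-test, Benjamini-Hochberg over 13602 genes, called at an adjusted p under 0.05. The biological coefficient of variation was 0.092. CPM were computed here from the deposited counts with TMM library sizes; log2 ratios used a prior count of 2. Fold changes are iBRD9 over DMSO. Alternatives were DESeq2 1.42.0, its size factors, library size alone, no filter, 1 CPM in 3 libraries, a replicate block and leaving out each library. Pairs of related genes were compared with exact permutation tests. The scripts were tested on simulated data.

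Members and lists were chosen with earlier results of these data known. Every member may be named; values per library are given for up to 4 higher and 4 lower called genes per family with the largest change, a mean log2 CPM of at least 1 and groups that do not overlap, for a fixed set of core genes, for both genes of each pair, and for up to 2 higher and 2 lower genes per further list. Exon overlaps and exon lengths are from GENCODE M21, an older build than the counts. Protein sequences were not used here. The values of 1 gene that enters the counts are not reported here.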

Additional observations from a re-analysis of the deposited data

How the results depend on the processing

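No gene that was called changed direction under any alternative. The counts of 30 genes higher and 12 lower became 31 and 12 with DESeq2, with its size factors and with the 1 CPM filter, 40 and 8 with library size alone, 25 and 12 with no filter, and 23 to 41 and 9 to 15 on leaving out 1 library. Counts of all tested genes called under each alternative are not given here, so these shifts are not read as particular to the members. Within families, leaving out 1 library gave 4 to 6 PRPF genes higher and 2 to 4 lower, 0 to 3 SF3A and SF3B genes higher, 4 to 8 Snrp genes higher, and 5 to 14 hnRNP genes higher with 1 to 2 lower. Library size alone left 3 SF3A and SF3B genes and 1 hnRNP gene lower. Deviations from the group means correlated at 0.12, 0.060 and 0.025 between libraries of the same replicate number. Between libraries of unlike number the correlations ran from -0.10 to 0.047. With 3 libraries per group, this does not settle whether the libraries were paired. With the replicate block 28 genes were higher and 12 lower, and 1 SF3A or SF3B gene was higher.

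Genes that were not called crossed 0 as follows. With library size alone the log2 fold changes were 0.036 for Prpf31 and 0.039 for Hnrnpab, and with no filter -0.000132 for Hnrnpll. On leaving out 1 library, values ranged from -0.0092 to 0.13 for Prpf3, from -0.043 to 0.024 for Prpf8, from -0.022 to 0.18 for U2af1l4, from -0.047 to 0.051 for Hnrnpll and from -0.032 to 0.29 for Hnrnpa1. The causes were not tested. Snrpf, with at most 24 counts in a library, passed the filter in some settings and not in others. With DMSO it averaged 0.168 CPM, against 13.2 CPM for Snrpg, the lowest of the other Sm ring genes named here. Whether its low counts come from the transcript level, the annotation or how reads were assigned was not tested.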
